A study of Homo sapiens with 33 samples.

Results

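The gene described here is TNF, which encodes the cytokine tumour necrosis factor alpha. Every spot whose only gene symbol in the platform annotation is TNF was taken, which gave 1 spot of 1 gene, among 18025 spots of 10726 genes with a single symbol and 34560 spots in all. The series measured RNA of 2 human cell lines on nylon membranes spotted with cDNA, using a radioactive label. THP-1 is a monocytic leukaemia line that grows in suspension, and CaCo-2 is an adherent colon carcinoma line with epithelial features. The 4 groups are TNF-treated THP-1 (THP1_TNF_60min, 7 arrays used), unstimulated THP-1 (THP1_control, 5 arrays), TNF-treated CaCo-2 (CaCo2_TNF_60min, 5 arrays) and unstimulated CaCo-2 (CaCo2_control, 5 arrays). Treated cells received recombinant human TNF at 5 ng per ml for 60 min, so the protein added is the product of the gene measured. THP-1 cells were kept in RPMI with 2-mercaptoethanol and CaCo-2 cells in DMEM, a difference of medium that goes with the line in every comparison between them. Nothing in the labels says whether arrays of a group come from separate cultures, so each p-value measures only the spread between these arrays, which may be technical, and their number limits the precision.

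TNF is made as a membrane protein on activated monocytes and macrophages, and ADAM17, a membrane protease, cuts it free. It binds the receptors TNFRSF1A and TNFRSF1B, whose signalling complexes activate the kinase IKK, NF-kB and the MAP kinases. TNF is itself a known NF-kB target in monocytic cells, and its short-lived mRNA is a known target of decay factors of the ZFP36 family. Epithelial cells of the colon are better known for responding to TNF than for making it.

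The TNF gene lies on chromosome 6, from 31575565 to 31578336 on the plus strand, next to the lymphotoxin gene LTA (RefSeq, GRCh38.p14). The annotation does not say which stretch of the transcript the spotted cDNA covers. The 160 bases upstream of the RefSeq start are shown because they carry some of the control elements through which this gene is known to answer NF-kB and AP-1 signalling. Capitals mark matches to the motifs searched in the 250 bases upstream of the start, on both strands.

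TNF promoter, chr6:31575405-31575564, plus strand: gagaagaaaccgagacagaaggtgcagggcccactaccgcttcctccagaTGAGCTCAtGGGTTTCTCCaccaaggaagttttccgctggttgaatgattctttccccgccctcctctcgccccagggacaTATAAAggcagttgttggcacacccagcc

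The first match is TGAGCTCA, 110 to 103 bases before the start, to TGANNTCA, the form of CRE sites. The shorter usual form of AP-1 sites, TGANTCA, was not searched. The second is GGGTTTCTCC, 101 to 92 bases before the start, to the form of NF-kB sites searched here, GGG and CC with 5 bases of any kind between them, and no motif overlaps another. The third is TATAAA, 29 to 24 bases before the start, the form of a TATA box. Of 35116 promoters of the same length, 10.1% held TGANNTCA, 54.4% the NF-kB form and 10.7% TATAAA, so each match is a description of these letters and not of a bound site.

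In THP-1 cells the TNF spot was brighter after TNF on most arrays. Its deposited intensity, on the linear scale of the table, was 0.680, 0.665, 0.556, 0.522, 0.576, 0.402 and 0.529 on TNF-treated THP-1 replicates 1, 2, 3, 4, 5, 6 and 8. It was 0.386, 0.493, 0.391, 0.404 and 0.398 on control THP-1 replicates 1, 2, 3, 4 and 7, where replicate 3 is a summed value divided by 3. Thus 6 of 7 treated arrays lay above the highest control array, and the groups overlap through TNF replicate 6, which sits among the controls, and control replicate 2, which sits above the other controls. The means were 0.562 ± 0.094 after TNF (SD, n = 7) and 0.414 ± 0.044 in control cells (SD, n = 5).

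In CaCo-2 cells the spot was dimmer than on most treated THP-1 arrays and was listed at 0 on several arrays. Where above 0, its values overlapped those of control THP-1. After TNF it was 0, 0.434, 0.380, 0.380 and 0.324 on CaCo-2 replicates 1, 2, 4, 5 and 6. In control CaCo-2 it was 0.421 and 0.358 on replicates 1 and 2 and 0 on replicates 3, 4 and 5. The spot was therefore above 0 on 4 of 5 treated and 2 of 5 control arrays, and where it was above 0 the groups overlap, with the control values inside the range of the treated ones. Fisher's exact test for the number of arrays above 0 gave a two-sided p of 0.524. The lowest positive value of any spot was 0.0921 or more on the CaCo-2 arrays. Over all arrays used it was between 0.0378, on the summed THP-1 control replicate 3 divided by 3, and 0.136. Every positive TNF value lay above this range, but the range is taken over all spots. No array used had a TNF value between 0 and 0.324, and how near the TNF values lie to a floor of this spot was not tested. Between 32.0% and 39.6% of all spots were listed at 0 on each array.

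**Figure D1:**
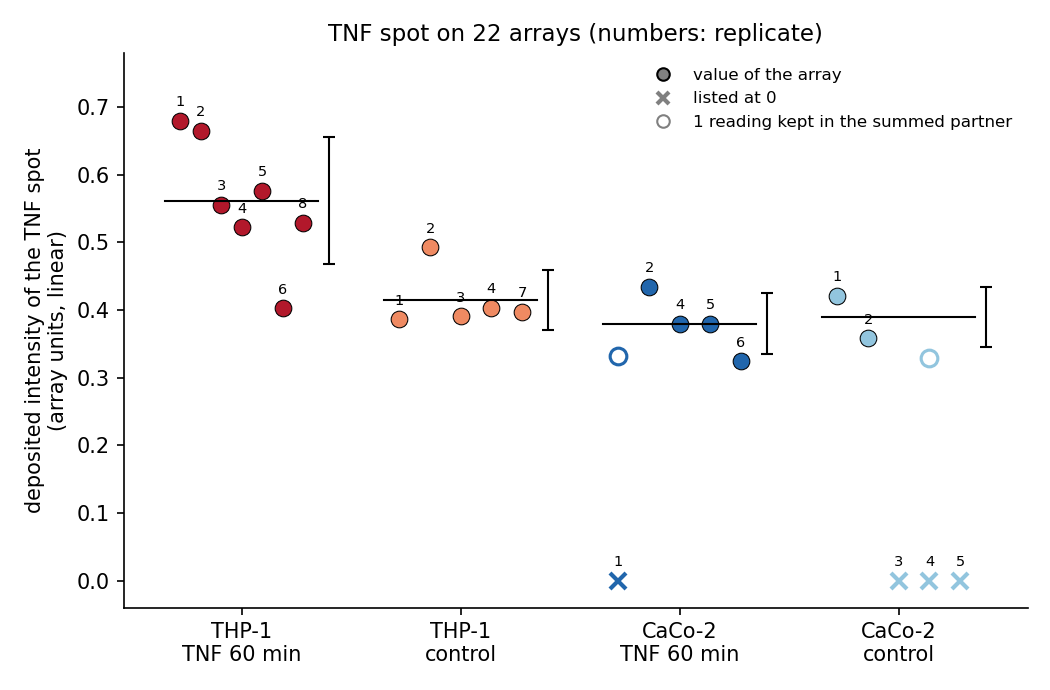
Deposited intensity of the TNF spot (linear array units) on the 22 arrays, by group, with the replicate number at each point. Filled points are array values, crosses are arrays listed at 0, open circles show a reading held by the summed partner column of such an array, and lines with bars give the mean and SD of the values above 0. TNF-treated THP-1 arrays run from 0.402 to 0.680 and control THP-1 arrays from 0.386 to 0.493, while no CaCo-2 array exceeds 0.434.

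Summed partner columns give a second view of the same arrays. In 10 pairs of columns, the summed value was exactly 2 times the single value (within 1e-05) at between 4088 and 6597 spots per pair. It was above 2 but below 2.2 times at 0 spots, and 2.2 times or more at between 15613 and 18922. This pattern was read as 3 readings per spot, with the single column giving the middle of 3 readings, the mean where 2 were above 0, and 0 where fewer than 2 were. Between 2 and 24 spots per pair lay below 2 and were not accounted for by it.

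Read this way, 2 of the 4 CaCo-2 arrays listed at 0 for TNF held 1 reading above 0. On TNF-treated CaCo-2 replicate 1, 1 reading was above 0, at 0.332, and replicate 5 had 3 readings summing to 1.08. Among control CaCo-2 arrays, replicate 1 had 3 readings summing to 1.21, replicate 2 had 2 summing to 0.717, replicate 4 had 1 at 0.329, and replicate 3 had 0. Control replicate 5 has no partner column. With the single readings of treated replicate 1 and control replicate 4 included, the spot averaged 0.370 ± 0.044 in treated CaCo-2 (SD, 5 of 5 arrays) and 0.369 ± 0.047 in control CaCo-2 (SD, 3 of 5 arrays). The values above 0 thus differed by less than the spread between arrays. These averages leave out every reading at 0, so they cannot show whether the levels of the 2 groups were equal.

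The pairs also bear on the 2 THP-1 arrays that stand apart. TNF replicate 6 had a middle reading of 0.402 and a sum of 1.35, so that its other 2 readings add up to 0.946 and the highest was at least 0.544. Control replicate 2 had a middle reading of 0.493 and a sum of 1.37, so that the lowest was at most 0.380. Their means per reading were 0.450 and 0.455, closer to each other than their single values. TNF replicate 6 is also the array with the most excluded spots, 286, whereas treated THP-1 arrays otherwise had between 46 and 135, and the part of this in its TNF value was not tested.

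**Figure D2:**
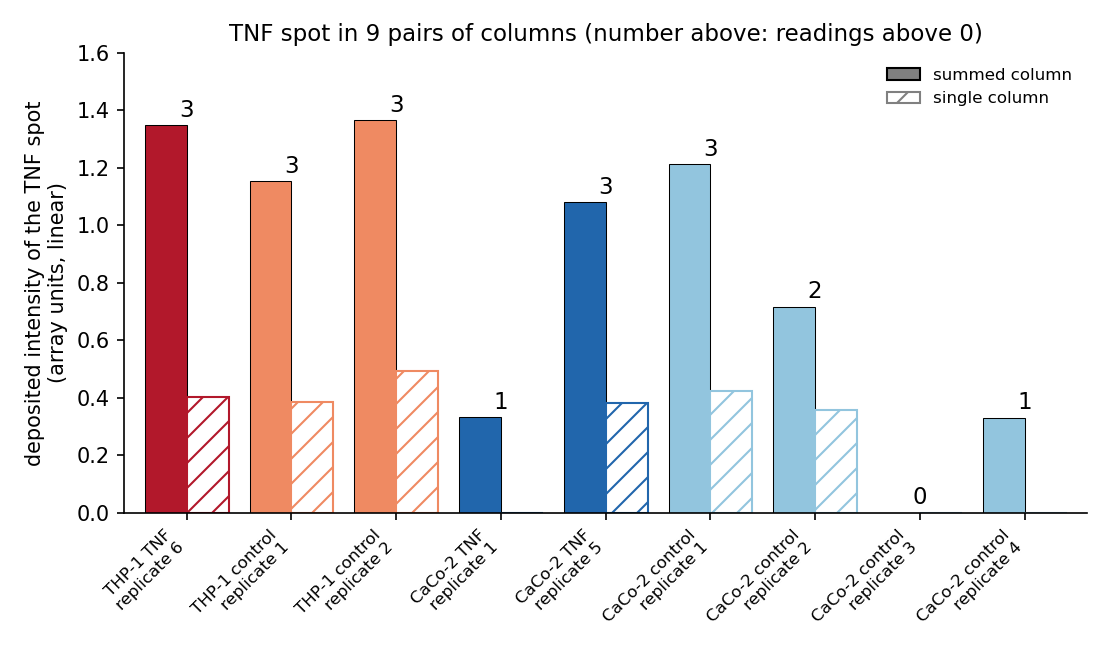
Deposited intensity of the TNF spot (linear array units) in the summed column (filled bar) and the single column (hatched bar) of the 9 pairs whose columns carry the same group label; the number above each pair counts the readings above 0. All 3 THP-1 pairs have 3 readings, while the 6 CaCo-2 pairs have between 0 and 3.

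For the tests, values were put on a log2 scale and quantile normalized over the 22 arrays, with values at 0 raised to the lowest positive value of their array. On this scale TNF averaged -0.87 ± 0.27 in treated THP-1 (SD, n = 7), -1.31 ± 0.15 in control THP-1 (SD, n = 5), -1.37 ± 0.030 in treated CaCo-2 (SD, 4 of 5 arrays above 0) and -1.39 ± 0.0085 in control CaCo-2 (SD, 2 of 5 arrays above 0). After normalization the levels above 0 thus run from treated THP-1 down through control THP-1 and treated CaCo-2 to control CaCo-2. The last 3 neighbours differ by less than the spread of control THP-1. Before it the last 2 stood the other way, with mean intensities above 0 of 0.379 in treated and 0.390 in control CaCo-2. Of the 18 arrays above 0, 11 lie between -1.40 and -1.34, a span of 0.066. These are all 4 treated and both control CaCo-2 arrays, 4 of 5 control THP-1 arrays and 1 of 7 treated THP-1 arrays. The other 7 lie between -1.05 and -0.57 and are 6 treated THP-1 arrays and control THP-1 replicate 2.

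The first comparison asks whether TNF raised its own transcript in THP-1. The log2 fold change of treated over control cells was 0.44 ± 0.13 (SE), with a 95% confidence interval from 0.15 to 0.72, or a fold of 1.35. In limma, across all 34559 spots tested, it had an unadjusted p of 0.00630 and an adjusted p of 0.958, so it did not pass the threshold of 0.05. Of all spots in this comparison, 0.0145% passed, and 3.37% reached 0.05 before adjustment. The exact permutation test of this single spot, two-sided over all regroupings of the 12 arrays, gave a p of 0.0126, or 0.0253 after Benjamini-Hochberg adjustment over the 4 such comparisons. The smallest p this design allows is 0.00126. TNF was chosen with earlier results of these data known. The permutation p-values here and below are therefore not those of a gene fixed in advance. By its limma p, TNF ranked 155 among the 34559 spots. Without TNF replicate 6 the log2 difference was 0.52 at an exact permutation p of 0.00216. That is the smallest p possible there, as every treated array left lay above every control array. Without control replicate 2 the log2 difference was 0.50 at an exact permutation p of 0.0152. These 2 omissions raised it most. With each array left out in turn it ran from 0.39 to 0.52, at an exact permutation p from 0.00216 to 0.0303.

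Among spots with a value above 0 on every THP-1 array, a change of this size was rare. Of 9979 such spots, 4 had a log2 fold change as high as TNF or higher, TNF included, where the median absolute log2 fold change was 0.021. The other 3 were VPS33A, a subunit of the vesicle tethering complexes HOPS and CORVET, and 2 unnamed spots, and they were named after their values were seen. In each of these 3, 1 control array lay far below the other controls. VPS33A had a lowest control level of -2.82 against a control median of -0.22, and a treated median of -0.030, with an adjusted p of 0.958 in limma. At least 6 of 7 treated arrays lay above every control array at 0.551% of the 9979 spots. TNF also varied more within its groups than spots of like level, with an SD of 0.27 in treated and 0.15 in control THP-1 cells, against medians of 0.053 and 0.053 over 1631 spots within 1.25-fold of its level.

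**Figure D3:**
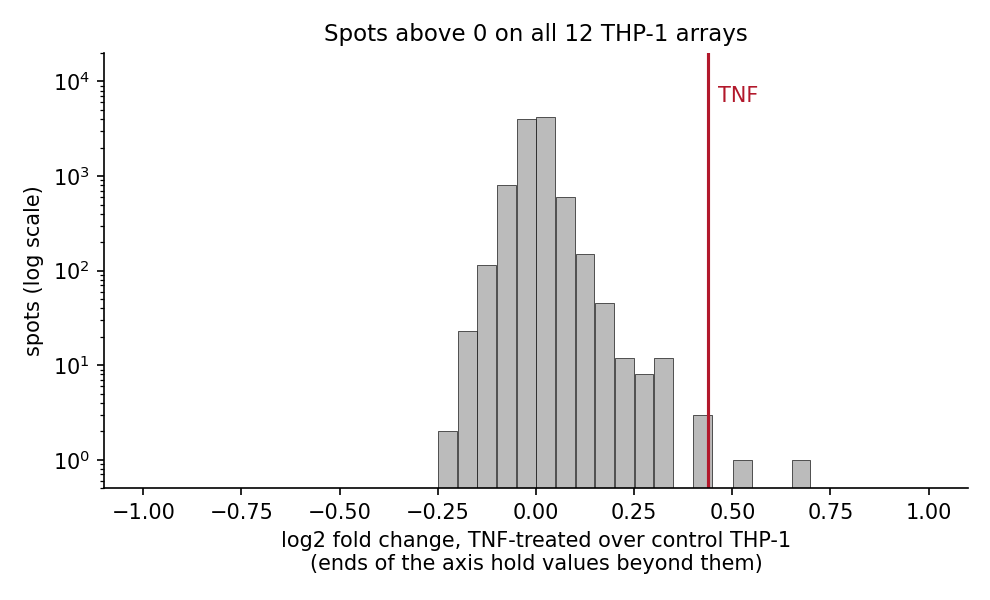
Number of spots (log scale) by log2 fold change of TNF-treated over control THP-1, for the 9979 spots above 0 on all 12 THP-1 arrays; the line marks TNF at 0.44. Only 3 other spots lie as far to the right.

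The second comparison asks the same of CaCo-2. With values at 0 set to the floor, the log2 fold change of treated over control CaCo-2 was 0.77 ± 0.56 (SE), with a 95% confidence interval from -0.49 to 2.03. It had an adjusted p of 0.949 in limma, where 0.0434% of spots passed, and an exact permutation p of 0.206, two-sided, where the smallest possible p is 0.00794. This value rests on the number of arrays at 0. With 0 taken as missing, the log2 fold change was 0.02 ± 0.04 (SE, 4 treated and 2 control arrays), with an interval from -0.065 to 0.106 and an adjusted p of 1.00 in limma. With the single reading of the summed partner in place of 0, it was 0.02 ± 0.09 (SE, 5 treated and 3 control arrays), with an interval from -0.19 to 0.22. A value of 0 was common at this brightness: among 3420 spots whose median positive level in treated CaCo-2 was within 1.25-fold of that of TNF, 19.6% of readings were 0, and among 3040 such spots in control CaCo-2, 18.2% were. At 13.6% of the latter, 3 or more of the control arrays read 0, as TNF did.

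**Figure D4:**
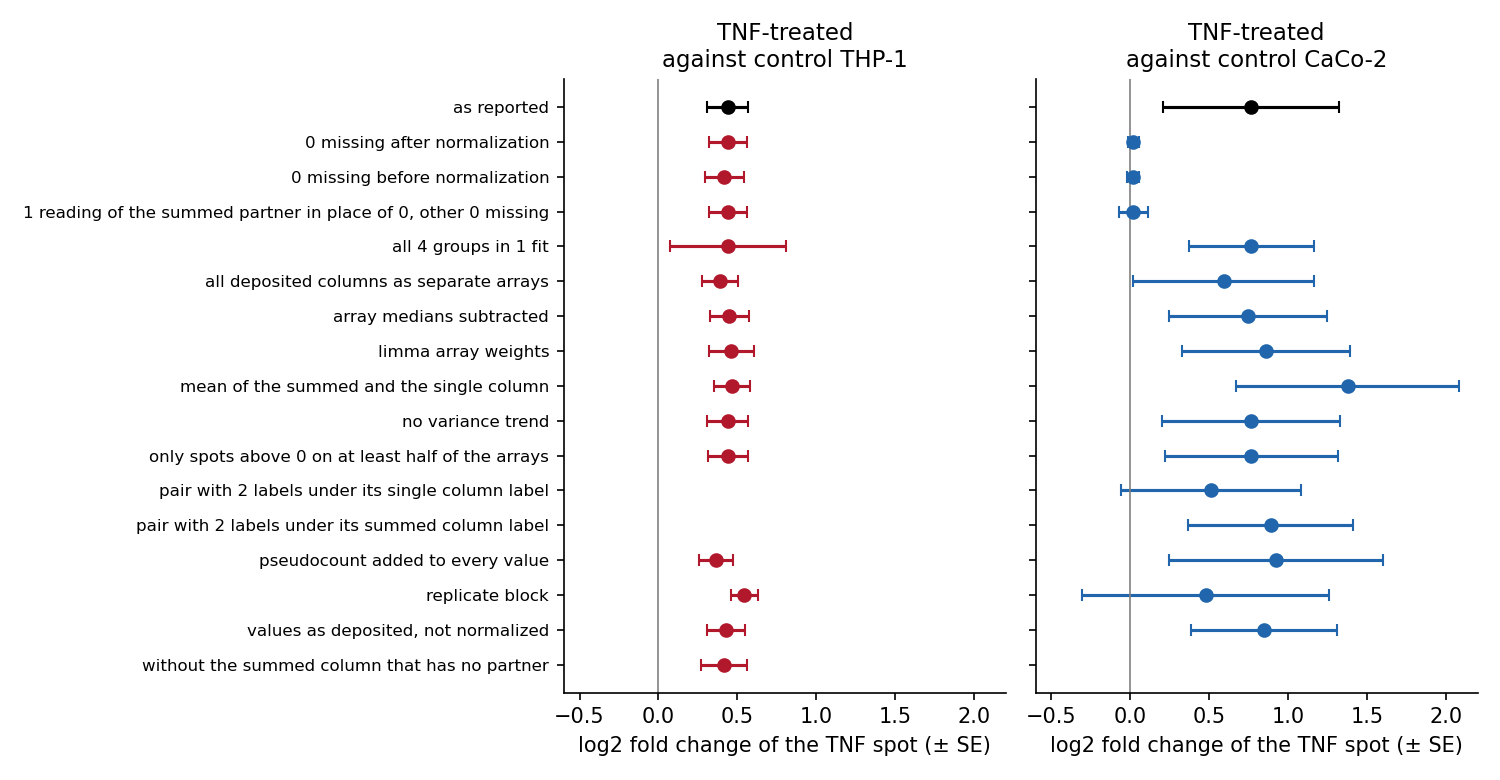
Log2 fold change of the TNF spot (± SE) in THP-1 (left) and CaCo-2 (right) as reported and under each processing alternative. The THP-1 value stays between 0.36 and 0.54, whereas the CaCo-2 value lies between 0.02 and 1.38. The CaCo-2 value is near 0 in the 3 settings that take 0 as missing. In 1 of these, single readings of the summed partner were put in first.

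The third comparison is of the response between the lines. The difference of the log2 fold changes, CaCo-2 minus THP-1, was 0.33 ± 0.54 (SE) with an interval from -0.80 to 1.46 and did not pass (adjusted p = 0.99 in limma). Across 34559 spots, 0 passed and 4.18% reached 0.05 before adjustment. With 0 taken as missing after normalization it turned to -0.42 ± 0.18 (SE), with an unadjusted p of 0.0359 and an adjusted p of 1.00 in limma. The sign of the difference in response thus depends on what is made of the 4 CaCo-2 arrays at 0.

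Between the lines, TNF was lower in CaCo-2 after treatment. Treated CaCo-2 against treated THP-1 gave a log2 difference of -0.87 ± 0.32 (SE), with an adjusted p of 0.267 in limma, where 1.25% of spots passed. The exact permutation p was 0.00379, two-sided, and 0.0152 after adjustment over the 4 comparisons. With 0 taken as missing, the log2 difference was -0.49 ± 0.12 (SE), with an adjusted p of 0.0599 in limma and an exact permutation p of 0.0182. All 5 treated CaCo-2 arrays lay below 6 of the 7 treated THP-1 arrays, and 1 of the 4 above 0, replicate 2, was brighter on the deposited scale than TNF-treated THP-1 replicate 6.

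Unstimulated CaCo-2 against unstimulated THP-1 gave a log2 difference of -1.20 ± 0.44 (SE), with an adjusted p of 0.374 in limma, where 0.449% of spots passed. The exact permutation p was 0.0476, two-sided, and 0.0635 after adjustment. This difference again comes from the 3 control CaCo-2 arrays at 0. Over the 2 above 0 it was -0.08 ± 0.09 (SE), with an interval from -0.29 to 0.14, and its exact permutation p was 0.571. The number of arrays above 0, 2 of 5 in CaCo-2 and 5 of 5 in THP-1, had a two-sided p of 0.167 by Fisher's exact test. These comparisons share groups with those above and are not independent of them. In bulk RNA, fewer cells that make a transcript and less of it per cell cannot be told apart.

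The named genes whose levels ran most like those of TNF over the 12 THP-1 arrays were found by Pearson's r over 4749 named spots above 0 on all of them. They were GPR83, a G protein-coupled receptor, at r = 0.86, EIF1, a translation initiation factor, at 0.85, CYP17A1-AS1, an antisense transcript, at 0.82, MCL1, an anti-apoptotic BCL2 relative, at 0.82, and JUNB, an AP-1 subunit and known early TNF response gene, at 0.82. The median r was -0.03, and no spot reached 0.9. These values are descriptions: the arrays share their treatment, and the highest of 4749 values over 12 arrays is high by selection. With each group's mean removed, r was 0.80 for GPR83, 0.73 for EIF1, 0.62 for CYP17A1-AS1, 0.73 for MCL1 and 0.67 for JUNB. Over the 6 CaCo-2 arrays where TNF was above 0, r ran from -0.25 for EIF1 to 0.53 for JUNB.

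Other spots of these genes were mixed. A second EIF1 spot had r = 0.78, but a second MCL1 spot had r = -0.67. JUNB has 3 spots, and all of them had positive log2 fold changes in THP-1, at 0.14 ± 0.06, 0.93 ± 0.36 and 0.22 ± 0.11 (SE). Each had an adjusted p of 0.958 in limma. The spot most like TNF was above 0 on all 12 THP-1 arrays. Its level ran from -2.76 to -2.53 with a median of -2.57 in treated cells, and from -2.83 to -2.58 with a median of -2.78 in control cells, and these ranges overlap. The 2 other JUNB spots were above 0 on 10 and 6 of 12 arrays, so their fold changes depend on the value set for 0.

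**Figure D5:**
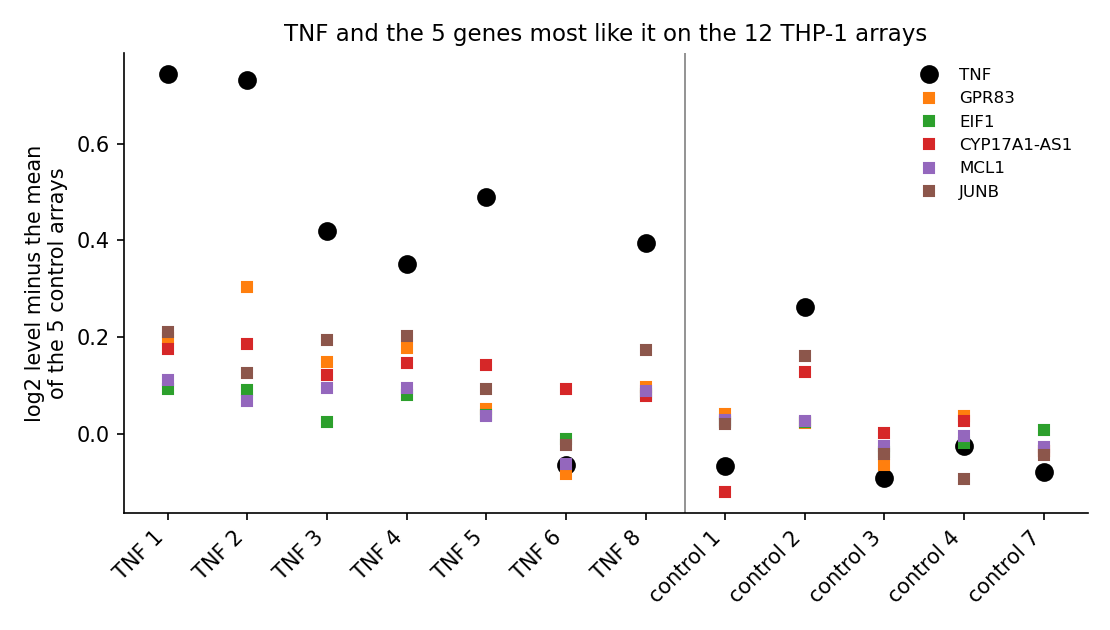
Log2 level minus the mean of the 5 control arrays, on each THP-1 array (treated left, control right), for TNF (large points) and the 5 named genes most like it (squares). Treated replicate 6 is the lowest treated array for TNF, GPR83, EIF1, MCL1 and JUNB, though not for CYP17A1-AS1.

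Genes that make, sense or control TNF were counted from 5 lists, which hold 105 genes, 63 of them with a spot of their own. None of the 63 passed in either line, where 0.0145% of all spots passed in THP-1 and 0.0434% in CaCo-2. At an unadjusted p under 0.05 there were 3 in each line, or 4.76%, against 3.37% of all spots in THP-1 and 4.21% in CaCo-2. In THP-1 these were TNF itself, TAB2 and JUNB, all with positive fold changes, as 1.75% of all spots had at this p. In CaCo-2 they were GADD45B with a positive fold change, against 2.18% of all spots, and ZFP36L1 and JUNB with negative ones, against 2.03%.

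Among genes for the ligand, its processing and its receptors, 6 of 10 were measured, and the receptors TNFRSF1A and TNFRSF1B were not among them. ADAM17 had a log2 fold change of -0.03 ± 0.06 in THP-1 and 0.01 ± 0.03 in CaCo-2 (SE). For ADAM10, a related protease, it was -0.06 ± 0.04 in THP-1 and 0.03 ± 0.04 in CaCo-2. LITAF, named as a factor that drives TNF expression after lipopolysaccharide, had 0.01 ± 0.04 and 0.01 ± 0.03 in the same order. TIMP3, an inhibitor of ADAM17, had -0.17 ± 0.15 and -0.19 ± 0.18, with 1 treated array of each line at 0 and set to the floor. Over the arrays above 0 its median level was -2.39 in treated and -2.38 in control THP-1, and -2.34 in treated and -2.34 in control CaCo-2. The list's median log2 fold change was -0.01 in THP-1 and 0.01 in CaCo-2, against 0.00 and 0.00 over all spots.

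In the receptor complex and IKK list, 19 of 24 genes were measured. TAB2, an adaptor of the kinase TAK1, had levels from -0.40 to -0.11 with a median of -0.22 in treated THP-1 and from -0.47 to -0.34 with a median of -0.44 in control THP-1. Its groups overlap, its log2 fold change was 0.15 ± 0.05 (SE) and its adjusted p was 0.958 in limma. In CaCo-2 it had 0.05 ± 0.03 (SE). CHUK, the IKK alpha kinase, had 0.14 ± 0.08 (SE) in THP-1 and -0.17 ± 0.26 (SE) in CaCo-2, and neither passed.

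Of 17 transcription factors known at the TNF promoter 10 were measured, among them JUN, which had a log2 fold change of 0.14 ± 0.08 (SE) in THP-1 and 0.14 ± 0.15 (SE) in CaCo-2. These values include arrays set to the floor, since JUN was above 0 on 7 of 7 treated and 4 of 5 control THP-1 arrays and on 4 of 5 treated and 3 of 5 control CaCo-2 arrays. Its median level over arrays above 0 was -2.74 in treated and -2.80 in control THP-1, and -2.75 in treated and -2.79 in control CaCo-2. RELA, the NF-kB subunit p65, was above 0 on 4 of 7 treated and 1 of 5 control THP-1 arrays. Of 18 genes of TNF mRNA decay and translation 15 were measured. ZFP36L1, an mRNA decay factor, was listed at 0 on all 5 treated CaCo-2 arrays and read from -1.97 to -1.93 on 4 of 5 control CaCo-2 arrays. Its adjusted p was 0.561 in limma. In THP-1 it was above 0 on 5 of 7 treated and 3 of 5 control arrays. ELAVL1, which stabilises such transcripts, was above 0 on 4 of 7 treated and all 5 control THP-1 arrays.

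Early targets of TNF were thinly covered, with 13 of 36 genes measured. NFKBIA, TNFAIP3, CXCL8 and IL6 had no spot of their own. GADD45B, a stress-inducible gene, was above 0 on 4 of 5 treated CaCo-2 arrays, from -2.91 to -2.80, and listed at 0 on all 5 control CaCo-2 arrays. The adjusted p was 0.561 in limma. The brightest JUNB spot was above 0 on 1 of 5 treated and 4 of 5 control CaCo-2 arrays. The log2 fold change there was -1.20 ± 0.53 (SE) and did not pass. On the arrays where it was above 0 it read -1.28 after TNF and from -1.30 to -1.25 in control CaCo-2. IER3, an immediate early gene, had 0.03 ± 0.02 (SE) and SOD2, the mitochondrial superoxide dismutase, -0.06 ± 0.07 (SE) in THP-1, where both were above 0 on all arrays.

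The cell line labels could be checked by few markers. Of 18 myeloid markers 7 were measured, of which LAPTM5, a lysosomal protein of blood cells, passed as lower in control CaCo-2, as 0.168% of all spots did. It was listed at 0 on all 5 control CaCo-2 arrays and read from -1.78 to -1.58 in control THP-1, with an adjusted p of 3.06e-07 in limma. Of 20 epithelial markers 4 were measured, and ELF3 passed by its brightest spot, which was above 0 on 5 of 5 control CaCo-2 and 0 of 5 control THP-1 arrays, and 0.281% of all spots passed as higher. The other 3, VIL1, CDH17 and CLDN4, were above 0 on all 5 control arrays of both lines, with log2 differences of 0.08 ± 0.04, -0.09 ± 0.07 and -0.01 ± 0.08 (SE), CaCo-2 minus THP-1. Among myeloid markers, CD4 had 0.27 ± 0.14, CD86 0.05 ± 0.07 and TYROBP 0.03 ± 0.05 (SE), and CSF1R had -0.60 ± 0.37 and LGALS3 -0.24 ± 0.31 (SE), none of which passed. PTPRC, the leukocyte antigen CD45, was above 0 on all 5 control arrays of both lines and differed by -0.02 ± 0.05 (SE). Lymphocyte markers had 0 of 8 measured and fibroblast and endothelial markers 6 of 9, of which 0 passed. CD14, CD68, LYZ, KRT18 and EPCAM had no spot of their own, so most defining markers of both lines were not measured here.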

How the data were processed

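Per the labels' protocols, RNA was reverse transcribed with a radioactive nucleotide and hybridised to nylon cDNA membranes. The authors deposited an intensity per spot and column, linear as far as the values show. The labels do not name the image analysis, the background correction or the scaling. Negative values were taken as codes and set to missing. Of 33 columns, 11 hold sums, roughly 3-fold brighter than the rest, and 10 of these repeat a single column; 9 pairs were counted once through the single column. The pair labelled control in the summed and TNF in the single column (CaCo-2) was left out. THP-1 control replicate 3, summed without a partner, was divided by 3. Arrays used were 22.

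Values at 0 were raised to the array's lowest positive value, log2 was taken and arrays were quantile normalized. Spots were tested two-sided in limma (version 3.58.1, R version 4.3.3) with lmFit and eBayes with a variance trend, Benjamini-Hochberg over all spots, threshold 0.05, each comparison on its own groups and the difference in response on all 4. Single values of the TNF spot were tested by exact permutation over arrays. The limma fits were also run on simulated data with normal noise, where changes were planted only in spots above 0 on every array of a line. That simulation held no readings at 0, so it does not bear on how values at 0 were handled. The gene and the lists were chosen with earlier results of these data known. Named genes are the TNF spot, the 5 most like it over THP-1 arrays, and list members with the smallest p, of which a selection is printed with others that have a known role; a gene of a list is its brightest spot. Of the spots, 858 carry several symbols and 15677 are unnamed.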

Additional observations from a re-analysis of the deposited data

Results flagged for a closer look

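Each group's TNF level, TNF intensity, excluded spots and share of spots at 0 were searched for an array far from the others. This was possible in 14 cases and found 4. The level and the intensity of TNF are 2 forms of 1 measurement, so the cases are not independent. The number set for chance, about 0.7, is therefore no test of the 4. The TNF spot in control THP-1 replicate 2 had a log2 level of -1.05 against -1.40 to -1.34 on the other control arrays, and a deposited intensity of 0.493 against 0.386 to 0.404. Excluded spots numbered 286 on TNF-treated THP-1 replicate 6, against 46 to 135 elsewhere in that group. They numbered 72 on control CaCo-2 replicate 4, against 98 to 106 elsewhere.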

How the results depend on the processing

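In THP-1, the log2 fold change of TNF lay between 0.36 and 0.54 over 14 alternatives and between 0.39 and 0.52 with each array left out. It passed after adjustment over all spots in none of them in limma (adjusted p from 0.387 to 1.00), and with all 4 groups in 1 fit the interval ran from -0.33 to 1.21 (unadjusted p = 0.247 in limma). Its exact permutation p, computed under 9 of the alternatives, lay between 0.0022 and 0.0303 over these and the left-out arrays. In CaCo-2 it lay between 0.02 and 1.38 over 15 alternatives and between 0.58 and 1.15 with each array left out, and did not pass. The difference in response reversed to -0.42 and -0.40 with 0 missing after and before normalization, to -0.42 with 1 reading of the summed partner in place of 0, and to -0.065 with the replicate block, and otherwise lay between 0.07 and 0.91, or between 0.14 and 0.71 with each array left out. The exact permutation test of control CaCo-2 against control THP-1 had an unadjusted p of 0.0476 (0.0635 adjusted over the 4 comparisons), and the unadjusted p was above 0.05 with 0 missing after normalization (-0.076) or before it (-0.094), with 1 reading in place of 0 (-0.14), without the unpartnered summed column (-1.18), and without any 1 of the 5 THP-1 controls. With each array left out it gave -1.49 to -1.01, at p from 0.0159 to 0.0952. In treated CaCo-2 against treated THP-1 the log2 difference lay between -1.36 and -0.49. The use of 1 reading in place of 0 was chosen after seeing the data. Counting the CaCo-2 pair with labels of different groups as control, by its summed column label, was also not planned.

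Replicate numbers were not treated as pairs in the reported fits. Deviations of same-numbered samples correlated between -0.33 and 0.66, and the same-numbered sample was the best match only for CaCo-2 replicate 1. A pairing is thus not shown, and it is not excluded. With the replicate block, the log2 fold change was 0.54 in THP-1 (adjusted p = 0.872 in limma) and 0.48 in CaCo-2 (0.946). Spots that passed numbered 5 in THP-1 (0 to 73 over the alternatives, 73 with the block), 15 in CaCo-2 (0 to 28), 0 for the difference in response (0 to 26), 432 between treated lines (103 to 1171) and 155 between control lines (7 to 1768). The CaCo-2 comparisons of TNF are limited by its readings at 0, and why those arrays read 0 was not tested.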

Other observations

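The CaCo-2 pair left out of the comparisons, because its summed column is labelled control and its single column TNF-treated, had TNF at 0.346 in the summed and 0 in the single column, which is 1 reading above 0. The other CaCo-2 arrays with any reading above 0 had an array value, or a single reading where that value was 0, of 0.324 to 0.434 after TNF and of 0.329 to 0.421 in control cells.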
